A study of Mus musculus with 4 samples.

Results

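The 9 genes described here were grouped as pachytene and spermiogenic transcription factors. They encode the MYB proteins Mybl1 (A-MYB) and Mybl2 (B-MYB), the basic helix-loop-helix protein Tcfl5 and the RFX proteins Rfx1, Rfx2, Rfx3 and Rfx4. The others encode the HMG-box protein Sox30 and Crem, a bZIP protein of the cAMP response family. Of the 9, Mybl2 is known from proliferating cells, Rfx1 is widely expressed and Rfx3 is known for a role in cilia. The 9 were chosen by gene name, though with earlier results of these data known, and are 9 of 15733 protein-coding genes with counts. RNA-seq covered mouse pachytene spermatocytes after testicular cells had been kept in suspension for 12 h with BMH21 at 2.5 µM or, as mock, with its solvent DMSO. BMH21, a DNA intercalator, blocks transcription of ribosomal RNA genes by RNA polymerase I. Cells were stained with the DNA dye Hoechst and sorted after the treatment, and each condition had 2 biological replicates. Whether these were separate animals is not said, so p-values measure the spread between these libraries. Strain and age are not given in the sources used here. Both groups went through the suspension culture and the sort, so no library shows the uncultured testis.

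Male germ cells read out their genome through successive layers of regulators. In mouse pachytene spermatocytes A-MYB is known to switch on meiotic genes and the genes of the pachytene piRNA pathway, and TCFL5 acts at the same stage. RFX proteins bind a pair of short inverted motifs (the X-box) in promoters of cilium genes, and RFX2 is needed to build the sperm tail. SOX30 and CREM are needed for spermatid development, CREM through activator isoforms that drive protamine and transition protein genes.

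Total counts per library ran from 30964370 to 41548269. X-linked genes took 0.0398% and 0.0405% of the counts in mock and 0.878% and 0.888% in BMH21, while all 9 genes lie on autosomes. Of the 12 pachytene markers, 12 were measured, with Ldhc (lactate dehydrogenase C) at 4375 and Ybx2 (a germ cell Y-box protein) at 2289 CPM in mock (counts scaled to a common library total), and their summed level was 10960 to 11080 CPM in mock and 11060 to 11130 CPM in BMH21. Within that sum 5 of the 12 rose, 4 fell and 3 did not pass edgeR's test at an adjusted p under 0.05. Over all tested genes that test called 16.5% higher and 12.5% lower. DESeq2 at its adjusted p called 4 of the 12 higher and 3 lower, but neither Ldhc nor Ybx2 (DESeq2 adjusted p of 0.127 and 0.222). Ldhc rose by 0.076 and Ybx2 fell by 0.11 on the log2 scale, and the synaptonemal complex genes Sycp3 and Sycp1, singled out after their values were seen, rose by 0.46 ± 0.039 and 0.27 ± 0.035 (SE). One of the 12, the linker histone gene H1f6, was at 0.455 CPM in mock and 0.256 CPM with BMH21. The 10 spermatid markers summed to 333.3 and 333.5 CPM in mock and to 353.2 and 349.1 CPM in BMH21. They were led by Akap4 and Prm2 (64.9 and 64.1 CPM in mock). Akap4 is X-linked and was at 71.2 CPM with BMH21, and Prm2 was at 65.0 CPM. Of the 10, 0 passed the test in edgeR or DESeq2. In edgeR without adjustment, at p under 0.05, 2 were higher (Akap4 and Tnp1) and 0 lower. At that level 5176 of all 13793 tested genes passed in either direction. Markers of spermatogonia summed to 54.6 to 58.1 CPM over all libraries, led by Id4 and Gfra1 (38.4 and 8.54 CPM in mock), and those of leptotene and zygotene cells to 123.6 CPM in each mock library and 111.7 and 109.6 CPM in BMH21, nearly all of it Spo11, with Meiob next (116 and 4.26 CPM in mock). Sertoli (Amh and Clu the most abundant), Leydig (Star and Insl3), peritubular (Tagln and Acta2), macrophage (Csf1r and Lyz2) and endothelial markers (Vwf and Pecam1) each summed to at most 9.60 CPM in a library, 17 of their 28 members had values, and 1 of these, Star, fell, from 8.97 to 6.34 CPM. In these bulk libraries fewer cells of a type and less RNA per cell cannot be told apart.

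Promoter sequences of the RFX genes are shown first, because the 4 RFX mRNAs were present at very different levels and 1 of them passed the test. Each window runs from 250 bases before to 50 bases after the annotated start (RefSeq, GRCm38.p6), 5′ to 3′ on the gene's strand, and Rfx4 has 2 annotated starts. Capitals mark the RFX core GTTNCC on either strand (GGNAAC where it lies on the opposite strand).
Rfx1, chr8:84066586-84066885, plus strand: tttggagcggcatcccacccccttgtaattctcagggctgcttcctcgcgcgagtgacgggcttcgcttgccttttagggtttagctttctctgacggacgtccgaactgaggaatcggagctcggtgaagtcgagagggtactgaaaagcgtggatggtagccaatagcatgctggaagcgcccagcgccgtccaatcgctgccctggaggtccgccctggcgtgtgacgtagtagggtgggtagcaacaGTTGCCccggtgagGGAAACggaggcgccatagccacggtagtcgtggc
Rfx2, chr17:56830959-56831258, minus strand: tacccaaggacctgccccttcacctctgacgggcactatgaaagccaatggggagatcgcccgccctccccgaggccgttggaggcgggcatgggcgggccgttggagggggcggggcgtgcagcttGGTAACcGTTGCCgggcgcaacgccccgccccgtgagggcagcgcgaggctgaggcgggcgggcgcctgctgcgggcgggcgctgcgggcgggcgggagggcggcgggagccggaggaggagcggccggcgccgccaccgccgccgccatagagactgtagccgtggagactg
Rfx3, chr19:28011117-28011416, minus strand: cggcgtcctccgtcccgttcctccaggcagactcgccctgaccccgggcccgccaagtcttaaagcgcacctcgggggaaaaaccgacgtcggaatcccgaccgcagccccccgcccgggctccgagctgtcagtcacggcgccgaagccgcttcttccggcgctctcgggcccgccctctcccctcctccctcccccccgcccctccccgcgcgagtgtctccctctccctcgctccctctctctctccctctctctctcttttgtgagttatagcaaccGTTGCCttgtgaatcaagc
Rfx4, chr10:84755798-84756097, plus strand: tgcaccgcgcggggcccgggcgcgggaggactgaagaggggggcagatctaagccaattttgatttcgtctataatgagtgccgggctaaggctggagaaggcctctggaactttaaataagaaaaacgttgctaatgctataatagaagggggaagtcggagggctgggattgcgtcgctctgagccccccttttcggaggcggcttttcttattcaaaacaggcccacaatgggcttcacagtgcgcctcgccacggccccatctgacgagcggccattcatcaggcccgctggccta
Rfx4, chr10:84837898-84838197, plus strand: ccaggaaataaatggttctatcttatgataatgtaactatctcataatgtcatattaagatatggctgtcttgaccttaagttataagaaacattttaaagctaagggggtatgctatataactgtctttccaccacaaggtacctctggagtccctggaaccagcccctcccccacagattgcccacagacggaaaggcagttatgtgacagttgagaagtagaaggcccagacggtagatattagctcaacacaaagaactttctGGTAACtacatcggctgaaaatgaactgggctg

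The RFX core occurred in 45.3% of the 32851 promoter windows of the table, so a single match is common. Rfx2 had 2, starting at -123 and -116 from the start site, and Rfx1 had 2, starting at 2 and 16. In both genes the 2 matches lie on opposite strands. In Rfx2 GGTAAC comes before GTTGCC, and in Rfx1 GTTGCC comes before GGAAAC. Whether the matches of either gene form an X-box was not tested. Rfx3 had 1, the window of the upstream Rfx4 start had 0 and that of the downstream Rfx4 start had 1. Among the other genes Tcfl5 had 3 matches, and Mybl2 and Sox30 had 1 each. The MYB core AACNG, present in 80.3% of all windows, was found in all 8 windows of these genes, with 6 matches in Tcfl5. The TCFL5 motif CACGCG, present in 9.27% of windows, was found in Tcfl5 itself and in Sox30. The CRE core TGACG, bound by CREM and its relatives and present in 20.8% of windows, was found 3 times in Rfx1 and once each in Rfx2 and at the upstream start of Rfx4. The SOX core ACAAT (31.0% of windows) was found at the upstream start of Rfx4 and in Sox30. The cell cycle homology element TTTGAA (17.9% of windows), which the MuvB complex of MYB proteins binds, was found at the upstream start of Rfx4, and in Tcfl5. These matches are descriptions of the letters only, and Mybl1 and Crem are not shown.

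BMH21 libraries were set against mock libraries to see which regulators' mRNAs differed after the inhibitor. Of the 9, 3 fell (Rfx4, Mybl2 and Mybl1) and 0 rose, while the remaining 6 did not pass the test (edgeR's quasi-likelihood test on counts, Benjamini-Hochberg adjusted p under 0.05 over 13793 tested genes). Over all tested genes 29.1% were called, 12.5% lower and 16.5% higher (1731 and 2282 genes), against 1805 higher and 2480 lower under upper quartile scaling. On autosomes alone, where the 9 lie, the shares were 12.8% and 15.1%. Without adjustment, at p under 0.05, edgeR called 4 of the 9 lower and 0 higher. Of all 13793 tested genes, 5176 passed at that level, in either direction. DESeq2 at its adjusted p called 2 of the 9 lower and 0 higher, against 1192 lower and 1778 higher over all genes. The median log2 fold change of the 9 was -0.11, against -0.00029 over all tested genes. Each fit with 1 library left out kept 1 library in a group. Such fits also called fewer genes over all tested genes, both higher and lower. Without mock replicate 1 the count of 3 became 1 (Rfx4 alone), and under upper quartile scaling 6 of the 9 were called lower.

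**Figure D1:**
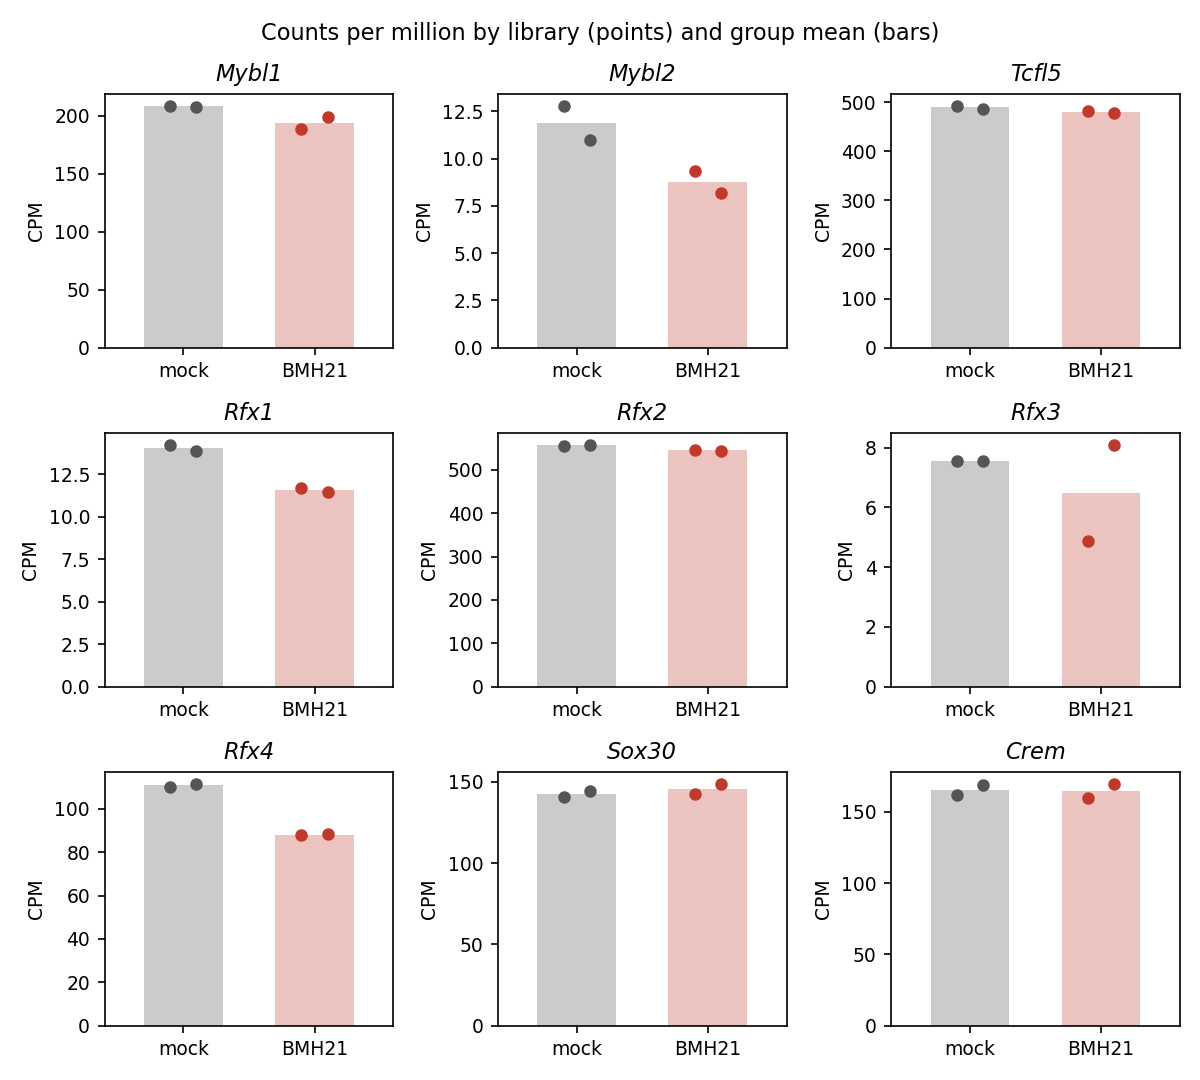
Level in CPM (y axis, starting at 0) of each gene in the 2 mock and the 2 BMH21 libraries (points), with the group mean as a bar. Rfx4 shows both BMH21 libraries at 87.8 and 88.5 CPM, under both mock libraries at 110.2 and 111.7 CPM, and Rfx3 shows BMH21 libraries at 4.86 and 8.10 CPM on either side of mock.

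The levels of the 9 spanned a wide range, compared here as CPM per kilobase of merged exons. In mock Tcfl5 was highest at 155 ± 1.47 CPM per kilobase (SD, n = 2), followed by Rfx2 at 76.2 ± 0.290, Sox30 at 47.6 ± 0.920, Mybl1 at 38.5 ± 0.157, Crem at 28.0 ± 0.840 and Rfx4 at 23.5 ± 0.225 CPM per kilobase. Mybl2 (2.57 ± 0.278), Rfx1 (2.19 ± 0.0429) and Rfx3 (0.684 ± 0.00128) stood far below. The level of Tcfl5 was 226-fold that of Rfx3. The order of the means was the same in BMH21, and neighbours in it did not overlap between libraries, except that Mybl2 (2.02 and 1.77) and Rfx1 (1.82 and 1.78) overlapped in BMH21. With the longest annotated transcript as the length, Crem moved above Sox30 and Mybl1, and Rfx1 above Mybl2. The count of a gene pools its transcripts, of which the annotation lists 39 for Crem and 1 for Sox30, so activator and repressor forms of Crem were not separated.

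**Figure D2:**
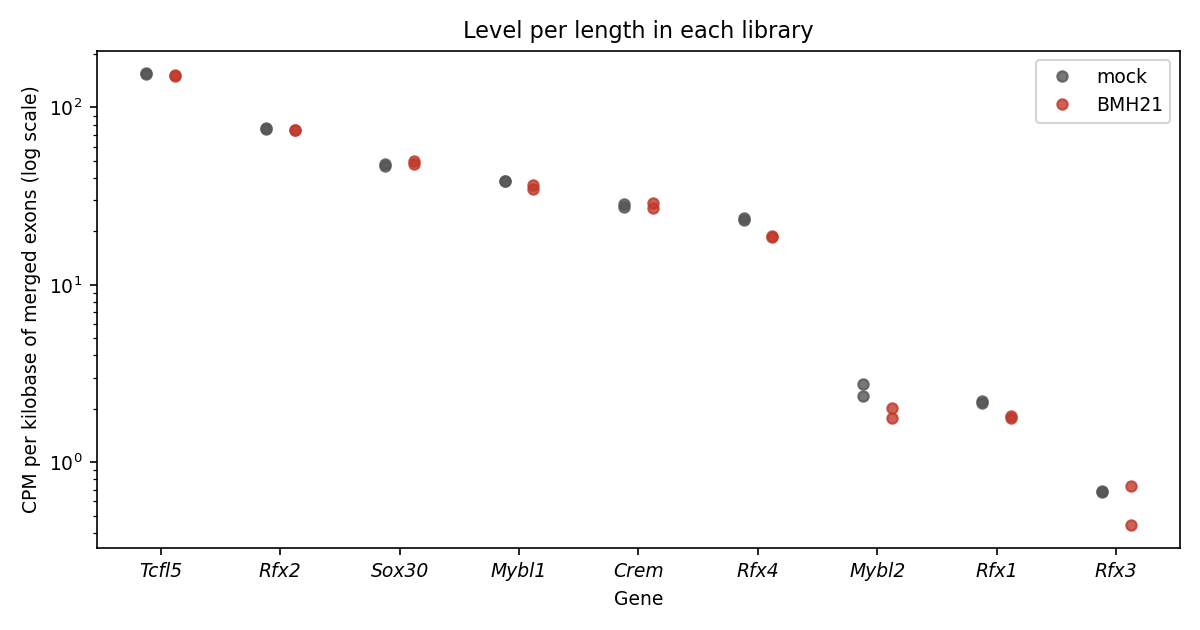
Level of each gene in CPM per kilobase of merged exons (y axis, log scale) in each library, ordered by the mock mean. Points are single libraries of mock and BMH21; 6 genes lie above 18 CPM per kilobase and Mybl2, Rfx1 and Rfx3 below 3.

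Among the MYB genes, Mybl1 (ENSMUSG00000025912.17, chromosome 1, 9667415 to 9700209 on GRCm38) encodes A-MYB, the regulator of pachytene transcription. It had 8754 and 6482 counts in mock and 6237 and 7353 in BMH21, which is 208.6 and 207.4 CPM against 188.3 and 198.5 CPM. Both BMH21 libraries were lower than both mock libraries, and the BMH21 libraries were farther from each other than the mock libraries. Mybl1 fell by 0.11 ± 0.035 (SE) on the log2 scale (-7.03%), with an edgeR adjusted p of 0.0153 (95% interval -0.17 to -0.036). DESeq2 on the same genes gave an adjusted p of 0.0482, and the authors' deposited table lists an adjusted p of 0.0600. The call was lost without either mock library (-0.099 without replicate 1 and -0.11 without replicate 2) and without BMH21 replicate 1 (-0.069).

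Mybl2 (ENSMUSG00000017861.12, chromosome 2, 163054687 to 163084688) encodes B-MYB, the family member of proliferating cells. It had 537 and 343 counts in mock and 310 and 304 in BMH21, which is 12.8 and 11.0 CPM against 9.36 and 8.20 CPM. The groups did not overlap, but replicates differed by about as much as the groups' nearest libraries. Mybl2 fell by 0.44 ± 0.13 (SE) on the log2 scale (-26.4%), with an edgeR adjusted p of 0.00807 (95% interval -0.71 to -0.17). DESeq2 gave an adjusted p of 0.0514 and the authors' deposited table lists 0.0621. The edgeR call was lost without mock replicate 1 (-0.32) or BMH21 replicate 2 (-0.35). Beside it, 2 of 7 tested spermatogonial markers fell, Zbtb16 from 3.28 to 1.68 CPM and Kit from 4.19 to 2.80 CPM, and 1 rose, the spermatogonial regulator Sohlh2, from 0.582 to 5.62 CPM (the 2 that fell were chosen after their values were seen). Id4 (38.4 to 35.2 CPM) and Gfra1 (8.54 to 8.29 CPM), the most abundant spermatogonial markers, did not pass edgeR's test. Uchl1 and Nanos3 did not pass it either. Summed, the spermatogonial list was at 57.6 and 57.7 CPM in mock and at 54.6 and 58.1 CPM in BMH21. Of 6 tested leptotene and zygotene markers 2 fell (Spo11 and Meiob) and 0 rose. In DESeq2 Kit and Meiob were not called (DESeq2 adjusted p of 0.144 and 0.160). Over all tested genes edgeR called 12.5% lower and 16.5% higher. The part of these markers in the result for Mybl2 was not tested.

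The partners and known targets of A-MYB gave small changes in both directions. MYB proteins act with the MuvB complex, and of its 5 genes 1 rose and 0 fell (median log2 fold change 0.062; lower also 0 at an unadjusted p in edgeR and 0 by DESeq2). That gene was Rbbp4, a histone-binding subunit, at 239.9 ± 1.91 CPM in mock (SD, n = 2) and 258.9 ± 5.81 with BMH21; it rose by 0.11 ± 0.031 (SE), and the count became 0 under upper quartile scaling and without mock replicate 2 or BMH21 replicate 2. Of 8 piRNA pathway genes whose promoters A-MYB is known to act on, 4 fell and 1 rose (median -0.043). Over all tested genes 12.5% fell and 16.5% rose. Piwil1, which encodes the pachytene PIWI protein MIWI, fell from 772 to 692 CPM (-0.16 ± 0.023 (SE), edgeR adjusted p = 8.28e-08). The helicase gene Mov10l1 fell by 0.13 and the Tudor genes Tdrd9 and Tdrd6 by 0.091 and 0.054 on the log2 scale. Tdrd5, another Tudor gene, rose from 309 to 348 CPM (0.17 ± 0.029 (SE)), and its exons overlap an antisense gene. Without mock replicate 1 the 4 that fell became 1, and without mock replicate 2 they became 2.

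Tcfl5 (ENSMUSG00000038932.14, chromosome 2, 180621956 to 180642708) encodes a pachytene regulator and was the most abundant of the 9 per length. It was at 493.1 and 486.5 CPM in mock and 481.6 and 477.5 CPM with BMH21. The BMH21 libraries lay just below the mock libraries, and the log2 fold change of -0.031 ± 0.025 (SE) did not pass the test (edgeR adjusted p = 0.417, 95% interval -0.082 to 0.020). Under upper quartile scaling it was called lower, at -0.076. Its exons share 234 bases with Col9a3 on the opposite strand.

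**Figure D3:**
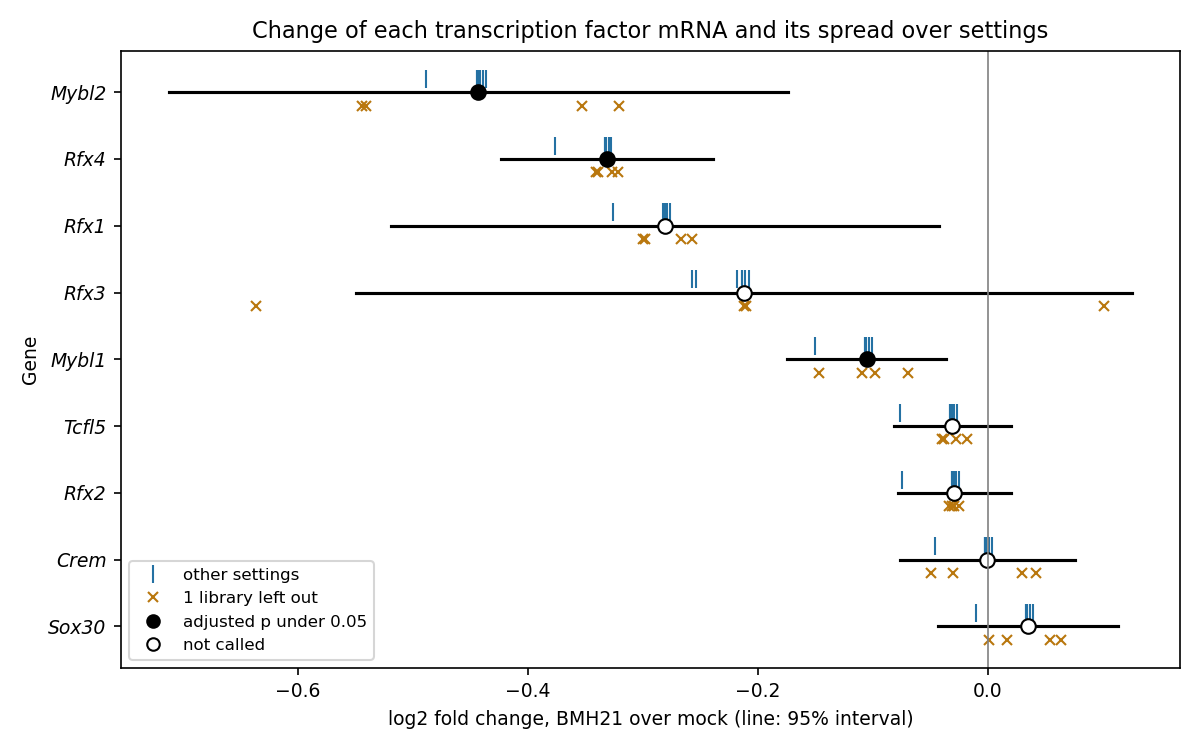
Log2 fold change of BMH21 over mock (x axis) for each gene, with its 95% interval as a line. Filled circles passed edgeR's adjusted p of 0.05, blue ticks are other settings of the fit and crosses leave out 1 library; the crosses of Rfx3 run from -0.64 to 0.10 and those of Rfx4 from -0.34 to -0.32.

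The RFX genes differed most in level and in the precision of their change. Rfx4 (ENSMUSG00000020037.16, chromosome 10, 84756062 to 84906538) encodes an RFX protein known from testis and brain. It had 4623 and 3489 counts in mock and 2907 and 3279 in BMH21, which is 110.2 and 111.7 CPM against 87.8 and 88.5 CPM. The groups were separated by far more than the replicates differed. Rfx4 fell by 0.33 ± 0.046 (SE) on the log2 scale (-20.5%), with an edgeR adjusted p of 1.97e-08 (95% interval -0.42 to -0.24). The fall stayed called with every 1 library left out (-0.34 to -0.32) and in DESeq2 (adjusted p = 2.56e-08), and the authors' deposited table gives an adjusted p of 3.78e-08. Counts do not tell from which of its 2 annotated starts the transcripts came.

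Rfx2 (ENSMUSG00000024206.16, chromosome 17, 56775897 to 56831013), the RFX gene known to be needed for sperm tail formation, was the most abundant of the family. It was at 555.5 and 558.5 CPM in mock and 547.0 and 544.7 CPM with BMH21. The groups did not overlap, yet the change of -0.029 ± 0.025 (SE) on the log2 scale did not pass the test (edgeR adjusted p = 0.425), and its 95% interval of -0.078 to 0.020 does not reach the value of Rfx4. Under upper quartile scaling Rfx2 was called lower, at -0.075. A test of Rfx4 against Rfx2 was not made.

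Rfx1 (ENSMUSG00000031706.8, chromosome 8, 84066834 to 84096992), a widely expressed RFX gene, was at 14.3 and 13.9 CPM in mock and 11.7 and 11.4 CPM with BMH21. The groups did not overlap, and the log2 fold change of -0.28 ± 0.12 (SE) did not pass the adjusted test (edgeR adjusted p = 0.0687; 95% interval -0.52 to -0.042). It was called lower under upper quartile scaling, at -0.33. Its exons share 42 bases with an antisense gene.

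Rfx3 (ENSMUSG00000040929.18, chromosome 19, 27761721 to 28011166), known for its role in motile and primary cilia, had 316 and 236 counts in mock and 161 and 300 in BMH21. In CPM the mock libraries were nearly equal, at 7.53 and 7.55, while the BMH21 libraries lay below and above them, at 4.86 and 8.10. The log2 fold change of -0.21 ± 0.17 (SE) did not pass the test (edgeR adjusted p = 0.392) and its sign depended on which BMH21 library was used: 0.10 without BMH21 replicate 1, and -0.64 with a call without BMH21 replicate 2.

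In all, 6 of the 9 genes had groups that did not overlap, each with BMH21 lower (Mybl1, Mybl2, Tcfl5, Rfx1, Rfx2 and Rfx4). Over all tested genes 60.9% had groups that did not overlap, 29.9% with BMH21 lower and 30.9% with BMH21 higher.

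Relatives of the RFX factors and cilium genes were measured beside them. Of the 6 other RFX genes and RFX5 partners 5 were tested, of which 1 rose and 1 fell (median -0.032). Rfx7 rose from 18.6 ± 1.80 to 25.5 ± 2.11 CPM, given with the SD of 2 libraries (0.45 ± 0.096 (SE) on the log2 scale, adjusted p = 1.27e-04 in edgeR), and Rfx8 fell from 129 ± 2.62 to 114 ± 2.44 CPM (-0.17 ± 0.042 (SE)). Exons of Rfx7 overlap antisense genes, and without mock replicate 2 the count of higher genes was 2. Of 14 cilium genes associated with RFX factors 4 fell, 1 rose and 9 did not pass the test (median -0.028). Among all tested genes 12.5% were called lower and 16.5% higher. The intraflagellar transport genes Ift172 and Ift122 fell by 0.11 each, from 996 to 923 CPM and from 552 to 511 CPM. Bbs2, a gene of the BBSome, which carries cargo in cilia, fell by 0.20 ± 0.047 (SE), and Dnaaf1, an assembly factor of axonemal dynein, by 0.074 ± 0.021 (SE), a call lost without mock replicate 1 (-0.060). Dnaaf1 shares 584 exon bases with Taf1c on the opposite strand. The most abundant of the list, Ift140, was at 1564 CPM in mock and 1533 CPM with BMH21. The gene that rose, Bbs9 (0.14, named after its value was seen), lost its call under upper quartile scaling and without mock replicate 1 or 2, and without BMH21 replicate 1 there were 2 higher genes.

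Of the spermiogenic factors neither passed the test. Sox30 (ENSMUSG00000040489.6, chromosome 11, 45980310 to 46017994) was at 140.6 and 144.5 CPM in mock and 142.9 and 149.0 CPM with BMH21. The groups overlapped, with a log2 fold change of 0.035 ± 0.039 (SE; edgeR adjusted p = 0.573, 95% interval -0.043 to 0.11) that changed sign under upper quartile scaling (-0.010). Crem (ENSMUSG00000063889.17, chromosome 18, 3266048 to 3337748) was at 161.5 and 168.5 CPM in mock and 159.7 and 169.8 CPM with BMH21. Its replicates differed more than its groups did, and the log2 fold change was -0.0004 ± 0.038 (SE; edgeR adjusted p = 0.996, 95% interval -0.076 to 0.076). Its exons share 472 bases with Gm6225 on the opposite strand.

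While Crem itself showed no call, several of its relatives and cofactors did. Of 9 tested, 3 rose and 1 fell (median -0.051), and under upper quartile scaling 2 fell. The other 5 did not pass the test in the main fit. Among them, named after their values were seen, were Fhl5 (5.26 to 4.94 CPM), Kif17 (25.0 to 24.1 CPM) and Camk4 (1.468 to 1.455 CPM). The shares over all tested genes in the main fit were 16.5% higher and 12.5% lower. The CREB coactivator gene Crtc1 fell from 17.1 ± 1.35 to 10.2 ± 1.03 CPM (SD of 2 libraries), a drop of -0.75 ± 0.12 (SE) on the log2 scale (edgeR adjusted p = 5.16e-07). Creb1, the cAMP response factor of somatic tissues, rose from 23.5 ± 2.14 to 33.2 ± 5.01 CPM (0.50 ± 0.090 (SE), edgeR adjusted p = 6.63e-06). Crtc2 rose from 17.9 to 24.5 CPM (0.45 ± 0.096 (SE)). Crtc3 rose from 0.375 to 1.35 CPM (1.88 ± 0.53 (SE)), a call lost without mock replicate 1 (1.40). Atf1, the most abundant of these genes, was at 119 CPM in mock and 113 CPM with BMH21 and was called lower under upper quartile scaling (-0.12).

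Of 9 spermatid genes associated with CREM, 0 rose and 0 fell in edgeR and in DESeq2. Without adjustment, at p under 0.05, 1 was higher and 0 lower in edgeR. Among all 13793 tested genes edgeR called 16.5% higher and 12.5% lower, and 5176 passed without adjustment in either direction. The median log2 fold change of the 9 spermatid genes was 0.024. Prm2 (protamine 2), the most abundant, was at 64.1 CPM in mock and 65.0 CPM with BMH21, a log2 fold change of 0.021 ± 0.057 (SE) that changed sign under upper quartile scaling (-0.025) and without BMH21 replicate 2 (-0.036).

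**Figure D4:**
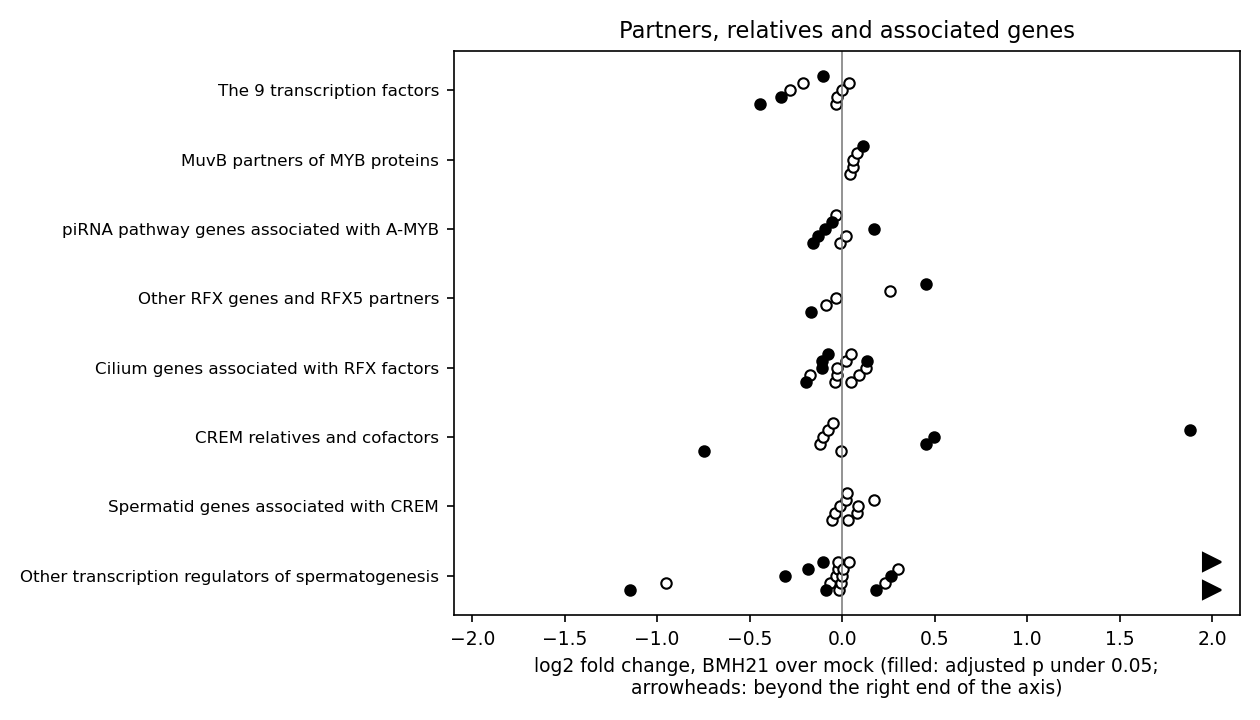
Log2 fold change of BMH21 over mock (x axis) for the 9 transcription factors and for each tested member of the 7 lists of partners, relatives and associated genes (rows; vertical offsets only separate points). Filled points passed edgeR's adjusted p of 0.05, and arrowheads mark Taf7l and Sohlh2, which lie beyond the axis at 5.70 and 3.28.

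The list of other transcription regulators of spermatogenesis was longer than that of the 9, and its changes spanned a wider range. Of 25 listed by name 23 had values and 21 were tested, of which 4 rose and 5 fell (median -0.016). Beside these, 16.5% of all tested genes rose and 12.5% fell. Taf7l, an X-linked TFIID subunit gene of germ cells, rose from 1.20 ± 0.118 to 63.2 ± 4.48 CPM (SD of 2 libraries). Its log2 fold change was 5.70 (adjusted p = 4.92e-48 in edgeR). X-linked genes as a whole took 0.0398% and 0.0405% of the counts in mock and 0.878% and 0.888% in BMH21. Sohlh2, an autosomal helix-loop-helix gene of spermatogonia, rose from 0.582 ± 0.0818 to 5.62 ± 1.93 CPM (3.28 ± 0.29 (SE), adjusted p = 6.78e-15 in edgeR). Nr2c2, the nuclear receptor gene of TR4, rose by 0.18 ± 0.029 (SE); it shares 4590 exon bases with Mrps25 on the opposite strand. Sox8, a relative of Sox30, fell from 22.3 ± 0.0543 to 10.04 ± 0.271 CPM (SD of 2 libraries; -1.15 ± 0.11 (SE), adjusted p = 7.64e-14 in edgeR), and its exons overlap an antisense gene. Dmrtb1, the most abundant, was at 819 CPM in mock and 807 CPM with BMH21. The 5 lower genes became 8 under upper quartile scaling, 3 in DESeq2, 3 without mock replicate 1, 2 without mock replicate 2 and 3 without BMH21 replicate 2.

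For each gene that was called, the 2 genes with the most similar values over the 4 libraries were sought among 7560 genes averaging at least 10 CPM, by the Euclidean distance of log2(CPM + 1) values centred per gene. For Rfx4 these were Fbn2 (distance 0.0162; log2 fold change -0.32) and Zzz3 (0.0200; -0.33). For Mybl1, Daam1 was among them (0.0135; -0.099), and for Mybl2 they were Abcc10 (0.0648; -0.38) and Map1s (0.0689; -0.37). With 4 libraries many genes lie close to any profile, so these names are a description.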

How the data were processed

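Raw read counts per gene and library were deposited by the authors for 15733 protein-coding genes, without normalization. Per the submitters' processing notes the build was mm10 and the tools included STAR, featureCounts, fastp, SAMtools and DESeq2; libraries came from a stranded mRNA kit per the labels, and the sources used here do not give whether counting used strand. The authors' normalized values (signal) are counts divided by 1 size factor per library and entered no test. Of the authors' deposited DESeq2 results the log2 fold changes and the Wald score were not used and adjusted p-values are quoted. Table positions differed from GENCODE M21 (GRCm38) for all but 369 of 15670 matched genes, so coordinates and exon lengths come from M21 by gene identifier.

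Counts were tested in R 4.3.3 with edgeR 4.0.16 (filterByExpr with a minimum count of 10, TMM factors, quasi-likelihood test, group alone; 13793 genes tested), with DESeq2 1.42.0 as an alternative. SE is the log2 fold change divided by the square root of F, an approximation. CPM uses TMM-scaled library sizes. The test was tried on simulated data first. Counts of replicates were not equal within noise (chi-square over its degrees of freedom was 3.21 for mock and 3.71 for BMH21). The spread that enters the p-values is moderated across genes.

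The members, lists, motifs and tests were chosen with earlier results of these data known. The text names all 9 genes, from each list up to 4 called genes with the smallest p and the most abundant one, the 2 most abundant of each marker list and the 2 genes most like each called gene, of which 1 for Mybl1 is not reported here. Alternatives were other scalings and filters, DESeq2, the replicate number as a block, each library left out and, chosen after seeing the data, autosomal genes alone. RefSeq promoter windows were found for 7 of the 9 genes.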

Additional observations from a re-analysis of the deposited data

How the results depend on the processing

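Rfx4 stayed called lower under every alternative run (-0.38 to -0.32 on the log2 scale). Mybl1 ranged from -0.15 to -0.069 and Mybl2 from -0.54 to -0.32 with 1 library left out, each losing its call in some of these fits, and Mybl2 also in DESeq2 (-0.44). Leaving out 1 library gave 1 to 3 genes called lower; it moved Rfx3 between -0.64 and 0.10, Crem between -0.049 and 0.042, and Prm2 between -0.036 and 0.069. Under upper quartile scaling, which shifted all genes by a median of -0.045, 6 of the 9 were called lower, with Tcfl5 (-0.076), Rfx1 (-0.33) and Rfx2 (-0.075) added, Sox30 changed sign (-0.010), as did Prm2 (-0.025). Crem was 0.0012 without a filter and 0.0036 on autosomal genes alone. The cause of these changes was not tested.

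With the length of the longest annotated transcript, the mock level per kilobase was 41.8 for Mybl1, 3.26 for Mybl2, 220.1 for Tcfl5, 3.37 for Rfx1, 134.5 for Rfx2, 0.825 for Rfx3, 31.4 for Rfx4 and 56.3 for Crem; this follows from the shorter length. The same replicate numbers are not said to mark shared animals or days, and same-numbered libraries did not deviate together (correlation 0.00985 across genes). With the replicate number as a block 2189 genes were called higher and 1595 lower, 3 of the 9 genes were called lower (Rfx4 at -0.33, Mybl2 at -0.44, Mybl1 at -0.11), and among the other transcription regulators of spermatogenesis 4 in place of 5 were called lower; the counts of the 6 remaining lists were the same. With 2 libraries a group, the low genes Rfx1, Rfx3 and Mybl2 were measured least precisely of the 9 (SE 0.12, 0.17 and 0.13).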

Other observations

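Rfx3 showed an unusually wide gap between the BMH21 replicates. The second BMH21 library exceeded the first by 0.74 on the log2 scale, while the mock libraries differed by 0.0039. Among 1330 tested genes with a mean of 5 to 10 CPM the median size of the gap between the BMH21 libraries was 0.15, and 4 genes, Rfx3 included, had a gap of at least that of Rfx3. The gene was singled out after its values were seen. Which BMH21 library stands apart cannot be told from 2 replicates.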
